A study of Mus musculus with 24 samples.

Results

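Gene expression 2 days after a sciatic nerve lesion was compared with control tissue in dorsal root ganglia (DRGs) of *Nfil3* knockout (KO) mice. The comparison used 8 of the 24 samples of the series, 4 KO samples at day 2 post-lesion and 4 KO controls, which were chosen by their titles, and it covered 41174 probes of 27398 gene names. All mice were adult male C57BL/6J. The sciatic nerve was lesioned on the left side and its endings were coaptated, L4 and L5 DRGs were dissected, and control DRGs came from the non-injured side. KO mice lacked *Nfil3* in all tissues, since the floxed region had been deleted in the germ line by crossing with mice carrying Cre under a human CMV promoter, and wildtype (WT) mice were littermates. WT day 2 and control samples and KO samples at day 5 post-lesion, again 4 per group, are used below for comparison. The sources used here do not state whether lesioned and control DRGs came from the same animals, so p-values measure the spread between these samples. The mice received a daily opioid analgesic in the first days after surgery.

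Sensory neurons whose axons are cut in the sciatic nerve switch from a transmitting to a growing state. They induce transcription factors such as ATF3, JUN and SOX11, cytoskeletal and growth cone proteins and a new set of neuropeptides, and they lower ion channels and receptors of the intact neuron, while macrophages and satellite glial cells around them respond. *Nfil3* (also called E4BP4) encodes a bZIP transcription factor that represses transcription and can bind DNA sites related to those of CREB.

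*Nfil3* itself was measured first. The brightest of its probes, at chr13:53062585-53062644 (mm9), had log2 intensities of 2.94, 3.80, 4.37 and 7.59 in KO controls (replicates 1 to 4) and 5.30, 4.14, 3.03 and 6.22 in KO samples at day 2. WT controls lay between 8.44 and 9.03 and WT day 2 samples between 10.34 and 10.76, so each KO sample was below each WT sample. The fitted difference between day 2 and control in KO DRGs was 0.00 ± 0.81 (log2, SE) and did not pass, nor did it pass without KO control replicate 4 (0.97, limma adjusted p = 0.443). It passed in the samples whose array partner had the same time point (1.68, limma adjusted p = 0.0302). The day 2 samples of that setting shared arrays with WT day 2 samples. *Nfil3* was not well above background in 3 of the 4 controls. The library labelled KO control replicate 4 stood apart, since *Nfil3* was well above background there and came to 47.7% of the WT control mean, and another label field of this library gives day 5 although its title gives day 0. A second *Nfil3* probe showed the same, with 6.70 in this library and 3.53 to 4.08 in the other KO controls. Whether these probes lie in the deleted region is not given in the sources used here. *Nfil3* was also well above background in KO day 2 replicates 1 and 4 and in KO day 5 replicates 1 and 3, whose array partners were lesioned WT samples. Results below include the library labelled KO control replicate 4, and values without it are given beside the main results that they change most.

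Each array carried a different sample in its Cy3 and its Cy5 channel, and the partner on the array differed between replicates. KO control replicates 2 and 3 shared arrays with WT controls, and KO day 2 replicates 1 and 4 with WT day 2 samples. The other 4 samples were paired with another time point, with KO day 2 replicate 3 on the array of KO control replicate 1, and with KO day 2 replicate 2 and KO control replicate 4 each on an array with a KO day 5 sample. Between 61.1% and 72.3% of probes were well above background in these 8 samples, no spot was saturated, and replicates correlated with r of 0.985 to 0.994 among controls and 0.976 to 0.988 at day 2. Alternative results for "same-time samples" below come from the 12 samples of the series whose array partner had the same time point, which leaves 2 KO controls against 2 KO day 2 samples. Those day 2 samples were replicates 1 and 4, which also stood apart in skeletal muscle markers (below).

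At day 2 post-lesion 3794 genes had changed in KO DRGs (limma, Benjamini-Hochberg adjusted p under 0.05 over all probes). Of these, 1707 were higher and 2098 were lower, including 11 genes with probes in both directions, and 790 changed at least 2-fold (492 higher, 298 lower). Without the library labelled KO control replicate 4 the count was 3126, and in same-time samples it was 1867. With a spread estimated from the compared groups alone 834 genes passed, of which 538 were higher. Of 137 genes past the threshold that were named by rule, 32 did not pass in same-time samples, 54 with the spread of the compared groups alone, 7 without KO control replicate 4 and 1 without KO day 2 replicate 3. Below, each gene is given by its brightest probe. On that basis 3272 of 27398 genes passed (11.9%), 5.54% higher and 6.4% lower, and the median change of all genes was -0.01 (log2). These shares are the background for the counts per gene group that follow. They include genes near the floor, while most list members were well above background. Among the 15462 genes well above background in all 8 samples, 1290 passed as higher and 1506 as lower, which is a larger share. In bulk tissue, fewer cells of a type and less RNA per cell cannot be told apart.

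The largest rise among genes measured well above background in all 8 samples was that of *Sprr1a*, a small proline-rich protein of regenerating axons. Its log2 intensity was 8.15, 5.66, 5.48 and 11.43 in KO controls and 13.72, 13.44, 12.60 and 13.72 at day 2, a rise of 5.69 ± 1.11 (log2, SE; limma adjusted p = 0.00188). The groups did not overlap, but the library labelled KO control replicate 4 was far above the other controls, and without it the rise was 6.94. The transcription factor *Atf3*, a marker of axotomized neurons, went from 9.04, 7.50, 7.46 and 9.66 to 13.76, 13.24, 12.94 and 14.10, and rose by 5.10 ± 0.50 (adjusted p = 8.19e-07). *Npy*, neuropeptide Y, went from 5.91, 4.67, 4.86 and 9.27 to 11.72, 11.26, 10.03 and 11.39 (4.92 ± 0.96, adjusted p = 0.00183, and 5.95 without KO control replicate 4). With the spread of the compared groups alone *Sprr1a* (adjusted p = 0.0657) and *Npy* (adjusted p = 0.0521) did not pass. In same-time samples the rises were 8.16 for *Sprr1a*, 6.45 for *Atf3* and 6.79 for *Npy*. In all 3 genes the highest controls were replicates 4 and 1, which shared arrays with lesioned samples, and the lowest day 2 sample was replicate 3, which shared an array with a control. The part of the array partner in these values was not tested. The same rises within each of the 3 slides were 5.79, 2.15 and 8.07 for *Sprr1a*, 4.69, 3.84 and 6.60 for *Atf3*, and 4.64, 2.22 and 6.72 for *Npy*, where the only KO control of the second slide was replicate 4.

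**Figure D1:**
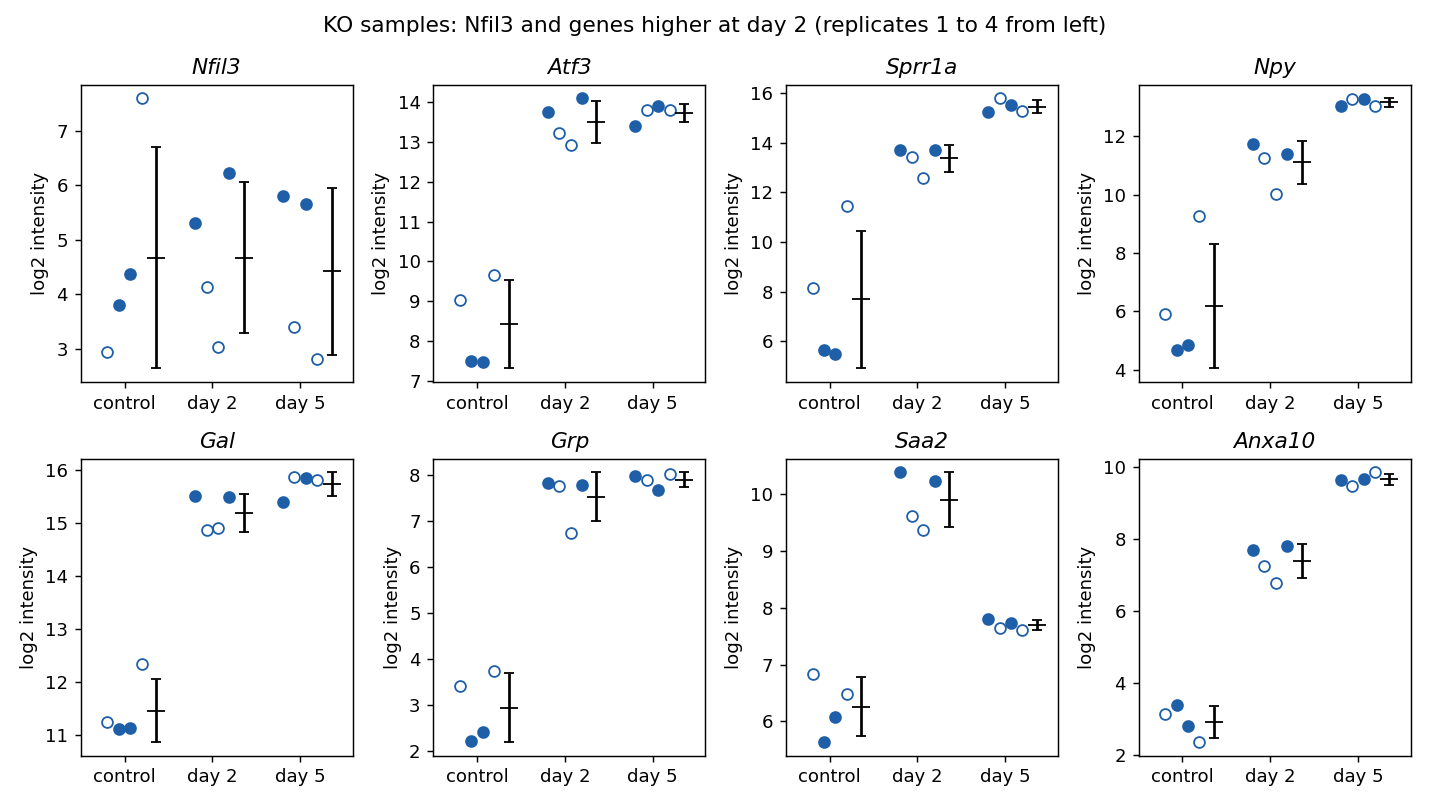
Log2 intensity of *Nfil3* and 7 genes that rose, in each KO control, day 2 and day 5 sample (replicates 1 to 4 from left). Filled symbols are samples whose array partner had the same time point, open symbols those with a partner of another time point, and bars are the mean ± SD (n = 4). For *Atf3*, *Sprr1a*, *Npy*, *Gal*, *Grp*, *Saa2* and *Anxa10* each day 2 sample lay above each control, and *Saa2* was lower at day 5 than at day 2.

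The next genes in this order were *Ucn* (urocortin, a stress peptide, 4.38 ± 0.34), *Wfdc3* (4.31 ± 0.24), *2010005H15Rik* (4.01 ± 0.17), *Gal* (galanin, 3.74 ± 0.30), *Csta* (a cystatin-type protease inhibitor, 3.72 ± 0.17), *Saa2* (serum amyloid A, an acute phase protein, 3.64 ± 0.23), *Star* (cholesterol transport into mitochondria, 3.49 ± 0.19), *Flrt3* (a membrane protein that promotes neurite growth, 3.46 ± 0.15) and *Kif22* (a kinesin, 3.46 ± 0.17). All 9 passed with adjusted p of 5.14e-08 or lower and without overlap of the groups. Among the 15462 genes well above background in all 8 samples, 1141 that rose and 1182 that fell passed the threshold without overlap of the groups. Over all 27398 genes, whether or not they passed, 6.82% were higher and 7.46% lower at day 2 without overlap. *Gal* had log2 intensities of 11.24, 11.10, 11.13 and 12.34 in controls and of 15.51, 14.87, 14.90 and 15.49 at day 2, again with replicate 4 as the highest control.

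A further 30 genes rose from no control sample well above background to all 4 day 2 samples, and 24 genes fell in the opposite way. For these a lower bound of the fold is given, in which the control mean was taken with each control sample set no lower than the dimmest signal that still counted as well above background on its array. Among the largest bounds were at least 20.9-fold for *Grp* (gastrin-releasing peptide, an itch transmitter), at least 17.4-fold for *Anxa10* (an annexin), at least 12.4-fold for *Fgf3*, at least 9.73-fold for *Colec10* (a collectin) and at least 8.75-fold for *Hao1* (a peroxisomal oxidase). *Grp* had log2 intensities of 3.41, 2.20, 2.40 and 3.74 in controls and 7.84, 7.77, 6.74 and 7.79 at day 2, and *Fgf3* of 3.08, 1.38, 2.79 and 4.48 against 7.41, 6.78, 6.32 and 7.26. In both genes the lowest day 2 sample was replicate 3 and the highest control, though not well above background, was replicate 4.

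Promoters of the most induced genes were searched for sites of AP-1, CREB/ATF and NFIL3, whose part in these changes was not tested. The search covered both strands of the 250 bases upstream of the gene start (RefSeq, GRCm38.p6, 14183 of 27398 genes matched by symbol). The letters searched were TGACTCA for AP-1 (the JUN/FOS site), TGACGTCA for CRE (the CREB/ATF site), TTACGTAA for E4BP4 (the NFIL3 site) with its variant TTATGTAA, and TTACGTCA as a CRE/E4BP4 hybrid, and no 2 of these can overlap. Of the 12 largest rises, 9 had a promoter and 3 held a motif, and these 3 are shown. Capitals mark the match, and positions count back from the gene start.
Sprr1a (chr3:92485882-92486131, minus strand): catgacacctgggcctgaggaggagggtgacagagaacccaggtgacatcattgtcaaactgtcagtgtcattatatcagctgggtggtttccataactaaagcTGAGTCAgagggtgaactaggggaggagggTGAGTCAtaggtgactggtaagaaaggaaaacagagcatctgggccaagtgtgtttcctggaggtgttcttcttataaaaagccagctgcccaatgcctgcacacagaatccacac
Atf3 (chr1:191183334-191183583, minus strand): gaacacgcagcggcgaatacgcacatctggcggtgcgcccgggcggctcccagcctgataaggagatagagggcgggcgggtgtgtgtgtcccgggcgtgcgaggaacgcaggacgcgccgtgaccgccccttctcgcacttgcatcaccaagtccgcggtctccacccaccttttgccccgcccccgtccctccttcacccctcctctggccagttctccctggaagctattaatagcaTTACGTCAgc
Ucn (chr5:31138896-31139145, minus strand): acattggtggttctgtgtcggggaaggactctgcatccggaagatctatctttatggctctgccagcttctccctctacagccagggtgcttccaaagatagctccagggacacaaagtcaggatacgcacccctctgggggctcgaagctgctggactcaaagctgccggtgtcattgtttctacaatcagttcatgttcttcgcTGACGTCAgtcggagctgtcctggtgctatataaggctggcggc
*Sprr1a* held the AP-1 motif at -146 and -116, in its reverse form TGAGTCA, *Atf3* the CRE/E4BP4 hybrid at -10, and *Ucn* the CRE at -44. Among the 7 of the 12 largest falls with a promoter no motif was found in this window.

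AP-1 letters occurred in 3.76% of all promoters of this length, in 5.58% of the 967 promoters of genes that rose and in 2.11% of the 993 of genes that fell. The corresponding shares were 2.21%, 2.79% and 2.72% for CRE and 0.557%, 0.724% and 0.504% for the CRE/E4BP4 hybrid. E4BP4 letters occurred in 0.127% of all promoters and in 0 promoters of genes that rose or fell, and those of its variant in 0.754%, 0.517% and 0.302%. These shares describe letters in a short window and were not tested.

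Injury-associated transcription factors that passed were higher, with 1 exception. Of 30 measured, 15 rose, 1 fell and 14 did not pass (median change 0.43). Beside *Atf3*, *Sox11*, a SOX factor needed for axon growth, rose by 3.43 ± 0.17 from between 6.25 and 6.81 to between 9.54 and 10.33 (adjusted p = 3.29e-11). *Fosl1* was not well above background in any control and rose at least 4.56-fold. *Jun* rose from 10.39, 10.11, 10.02 and 10.13 to 11.84, 11.72, 11.51 and 12.12 (1.64 ± 0.12, adjusted p = 1.97e-08) and *Crem*, a CREB family member, by 1.55 ± 0.12. *Fosl2* (1.41), *Cebpd* (1.32), *Klf6* (1.25), *Fos* (1.18), *Smad1* (0.99), *Junb* (0.89), *Ets2* (0.76), *Cebpb* (0.65), *Myc* (0.56) and *Creb1* (0.41) also rose. *Creb3l2*, an ER-stress factor of the CREB family, fell by 0.36 and was the exception.

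Axon growth and regeneration-associated genes moved in 1 direction. Of 30 measured, 19 rose, 0 fell and 11 did not pass, with a median change of 0.77 against -0.01 for all genes. *Gadd45a*, a growth arrest and DNA damage gene of injured neurons, had log2 intensities of 9.49, 9.23, 9.23 and 9.39 in controls and 12.79, 12.44, 12.04 and 13.07 at day 2 (3.25 ± 0.18, adjusted p = 1.77e-10). *Tubb6*, a beta-tubulin, rose by 2.93 ± 0.19 from 10.33, 10.31, 10.22 and 10.79 to 13.59, 13.37, 12.67 and 13.74. In both, the 4 day 2 samples lay well above the controls and replicate 3 was the lowest of them. *Stmn4*, a microtubule regulator, rose by 2.79 ± 0.15, the urokinase receptor *Plaur* by 2.78 ± 0.22, the TWEAK receptor *Tnfrsf12a* by 2.47 ± 0.20 and the laminin receptor subunit *Itga7* by 1.83 ± 0.16. Smaller rises were found for *Gap43* (1.44), *Arg1* (1.27), *Hspb1* (1.21), *Chl1* (1.04), *Cd44* (0.88), *Basp1* (0.66), *Lgals1* (0.64), *Marcks* (0.62), *Fgf2* (0.59) and *Plat* (0.50). *Arg1*, arginase 1, was well above background in 2 of 4 controls, and its groups touched, with controls up to 4.64 and day 2 samples from 4.64.

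**Figure D2:**
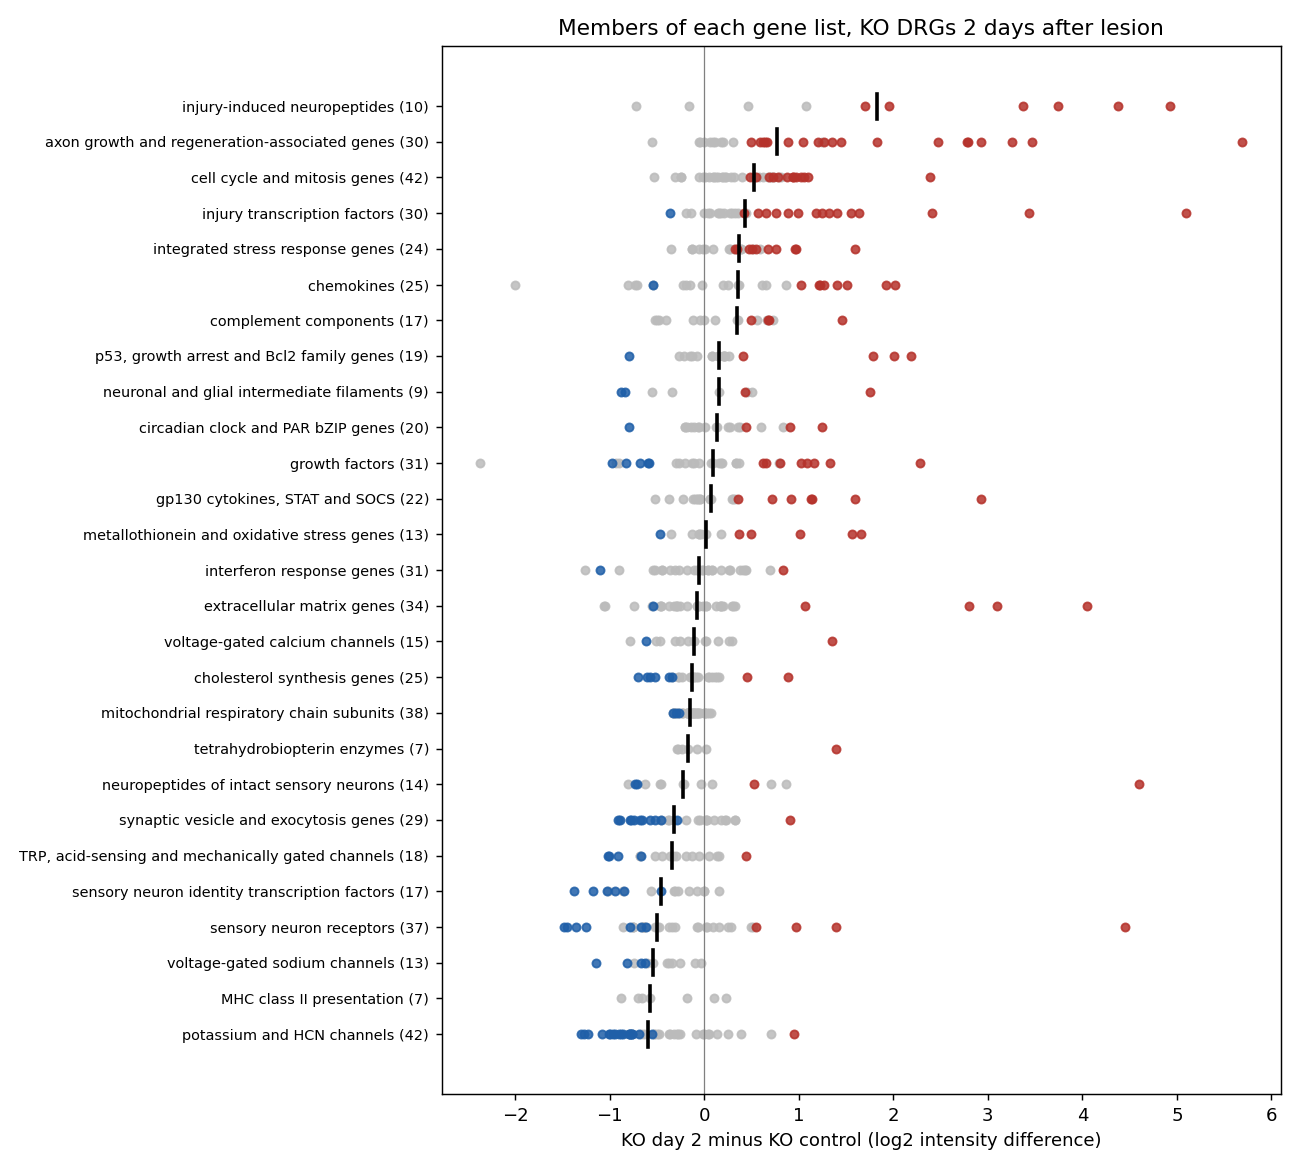
Change between KO day 2 and KO control (log2 intensity difference) of each measured member of 27 gene lists, with the number of members in brackets. Red points are members that rose, blue points members that fell, grey points members that did not pass and black bars list medians, with members not above background at their fitted difference. The medians ran from 1.83 for injury-induced neuropeptides to -0.60 for potassium and HCN channels.

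Neuropeptides induced by injury rose strongly, and those of the intact neuron did not move together. Of 10 injury-induced peptide genes measured 6 rose and 0 fell (median change 1.83). They were *Npy*, *Ucn* and *Gal* (above), *Nts* (neurotensin, 3.37 ± 0.19), *Adcyap1* (PACAP, 1.96 ± 0.11) and *Vip* (vasoactive intestinal peptide), although *Vip* was well above background in none of the 8 samples, so no fold is given. *Nts* had log2 intensities of 9.19, 8.62, 8.79 and 8.50 in controls and 12.63, 12.16, 11.47 and 12.35 at day 2, with no overlap. Among 14 genes of intact sensory neuron peptides and their processing, 2 rose (*Grp* and the convertase *Pcsk1*, 0.52 ± 0.10), 2 fell (the granins *Chga*, -0.73 ± 0.14, and *Chgb*, -0.72 ± 0.14) and 10 did not pass. *Grp*, though on this list, was well above background in no control.

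Receptors of sensory neurons changed in both directions. Of 37 measured 4 rose, 7 fell and 26 did not pass (median change -0.51), while 16 fell in same-time samples and 15 fell without KO day 2 replicate 3. *Cckbr*, the cholecystokinin B receptor, rose by 4.45 ± 0.42, from between 4.13 and 6.54 to between 8.92 and 9.92, and was well above background in 2 of 4 controls. *Gfra1*, the GDNF co-receptor, rose by 1.39 ± 0.13 without overlap of the groups (adjusted p = 2.77e-07), and the artemin co-receptor *Gfra3* by 0.97 ± 0.12. *Npy2r* rose by 0.54. The serotonin receptor subunit *Htr3b* fell from 7.85, 7.81, 8.35 and 7.96 to 5.99, 6.98, 7.55 and 5.51 (-1.49 ± 0.34, adjusted p = 0.00586). The fall of *Htr3b* was larger in the day 2 samples that shared arrays with WT day 2 samples (replicates 1 and 4) than in replicates 2 and 3. The nociceptin receptor *Oprl1* fell by 1.36 on the log2 scale, the adrenergic receptor *Adra2c* by 1.25, and the kappa opioid receptor *Oprk1* by 1.45, to 1 of 4 day 2 samples well above background. *Ntrk3* (TrkC, -0.79) and *Cnr1* (cannabinoid receptor 1, -0.67) were lower too.

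Potassium and HCN channels, which set the firing threshold, made up the largest group of lowered genes among the lists. Of 42 measured 18 fell, 1 rose and 23 did not pass (median change -0.60), against 6.4% lower among all genes. With the spread of the compared groups alone 7 fell. *Kcns1*, a modulatory subunit linked to pain, had log2 intensities of 8.50, 8.65, 8.57 and 8.52 in controls and 7.08, 7.66, 7.63 and 6.65 at day 2 (-1.31 ± 0.19, adjusted p = 0.000121). *Kcnh5* (-1.27 ± 0.18), the channel-interacting *Kcnip1* (-1.23 ± 0.19) and the fast Kv3 channel *Kcnc1* (-1.08 ± 0.17) followed. The controls of *Kcns1* spread over far less than the day 2 samples, which were lowest in replicates 1 and 4. *Kcnb2*, *Kcns3*, *Kcnq5*, *Kcnn2*, *Kcnt1*, *Kcna2*, *Kcnmb1*, *Kcnh2*, *Kcnab2*, *Kcnk1*, *Kcna1* and *Hcn2* fell less, the last by 0.56. The calcium-activated channel subunit *Kcnmb4* was the member that rose (0.95 ± 0.11).

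Of 13 voltage-gated sodium channel genes 4 fell and 0 rose (median change -0.54). *Scn8a* (Nav1.6) went from 12.89, 12.79, 12.63 and 12.50 to 11.06, 11.84, 11.99 and 11.33 (-1.15 ± 0.16, adjusted p = 6.07e-05), without overlap. *Scn1a* (-0.82 ± 0.20), the beta subunit *Scn2b* (-0.67 ± 0.16) and the channel-binding *Fgf13* (-0.62 ± 0.18) fell as well, *Scn2b* and *Fgf13* with overlapping samples, and *Fgf13* did not pass without the library labelled KO control replicate 4 (adjusted p = 0.0519). Among 15 calcium channel genes, 1 rose and 1 fell, shares near the background. The auxiliary subunit *Cacna2d1*, the target of gabapentin, rose by 1.35 ± 0.13 from 11.37, 11.07, 11.06 and 11.23 to 12.41, 12.89, 12.30 and 12.52, while *Cacna2d3* fell by 0.62. Of 18 TRP, acid-sensing and mechanically gated channels, 4 fell and 1 rose, and 9 fell without KO day 2 replicate 3. These were the acid-sensing channels *Accn2* (-1.02 ± 0.14) and *Accn3* (-0.92 ± 0.17), the cold receptor *Trpm8* (from between 6.67 and 6.91 to between 5.05 and 6.23), *Trpm2* (-0.67 ± 0.18) and, upward, *Trpv2* (0.44 ± 0.10).

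Genes of the synaptic vesicle and of exocytosis were lower in 11 of 29 cases, higher in 1 and not past the threshold in 17 (median change -0.32). *Sv2b*, a vesicle glycoprotein, fell by 0.91, complexin *Cplx2* by 0.89, the active zone protein *Rims2* by 0.79, *Vamp1* by 0.77, *Syt2* by 0.75 and the glutamate transporter *Slc17a7* by 0.52. *Syt4*, a synaptotagmin, rose by 0.91 ± 0.11. In same-time samples 7 members fell, and 1 with the spread of the compared groups alone. Transcription factors of sensory neuron identity were lower in 6 of 17 cases and higher in 0 (median change -0.46). *Etv1*, a factor of proprioceptive neurons, had a mean log2 intensity of 12.24 ± 0.21 in controls and 10.87 ± 0.31 at day 2 (SD, n = 4), with each day 2 sample below each control (-1.38 ± 0.16, adjusted p = 5.27e-06). *Shox2* (mechanoreceptors, -1.18 ± 0.21), *Pou4f3* (-1.03 ± 0.23), *Runx3* (proprioceptors, -0.94 ± 0.19), *Isl2* (-0.85 ± 0.24) and *Isl1* (-0.46 ± 0.12) were the others.

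The largest falls among genes well above background in all 8 samples and without overlap of the groups were smaller than the largest rises. *Gm17456* fell by 1.95 on the log2 scale, *Comp* (a cartilage matrix protein) by 1.75, *Mfap4* (an elastic fibre protein) by 1.69, *Lingo4* by 1.59, *Cyp26b1* (a retinoic acid degrading enzyme) by 1.57, *Gm16551* by 1.57, *AK045384* by 1.54, *Ankrd34c* by 1.51, *Kndc1* by 1.51 and *Hoxb6* (a homeobox factor) by 1.51, with *Whrn* (whirlin, a scaffold protein) and *Htr3b* (above) as the last of these 12. *Comp* went from 10.80, 10.72, 10.65 and 10.47 to 8.74, 9.28, 9.44 and 8.18 (adjusted p = 8.35e-05), and *Hoxb6* from 9.86, 9.92, 10.08 and 10.14 to 8.66, 8.38, 8.67 and 8.26 (adjusted p = 6.29e-07). In both, each day 2 sample lay below each control. *Mfap4* was the weakest of these calls (adjusted p = 0.0422) and did not pass without the library labelled KO control replicate 4 (adjusted p = 0.114), nor did *Cyp26b1* pass in same-time samples (adjusted p = 0.0846).

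**Figure D3:**
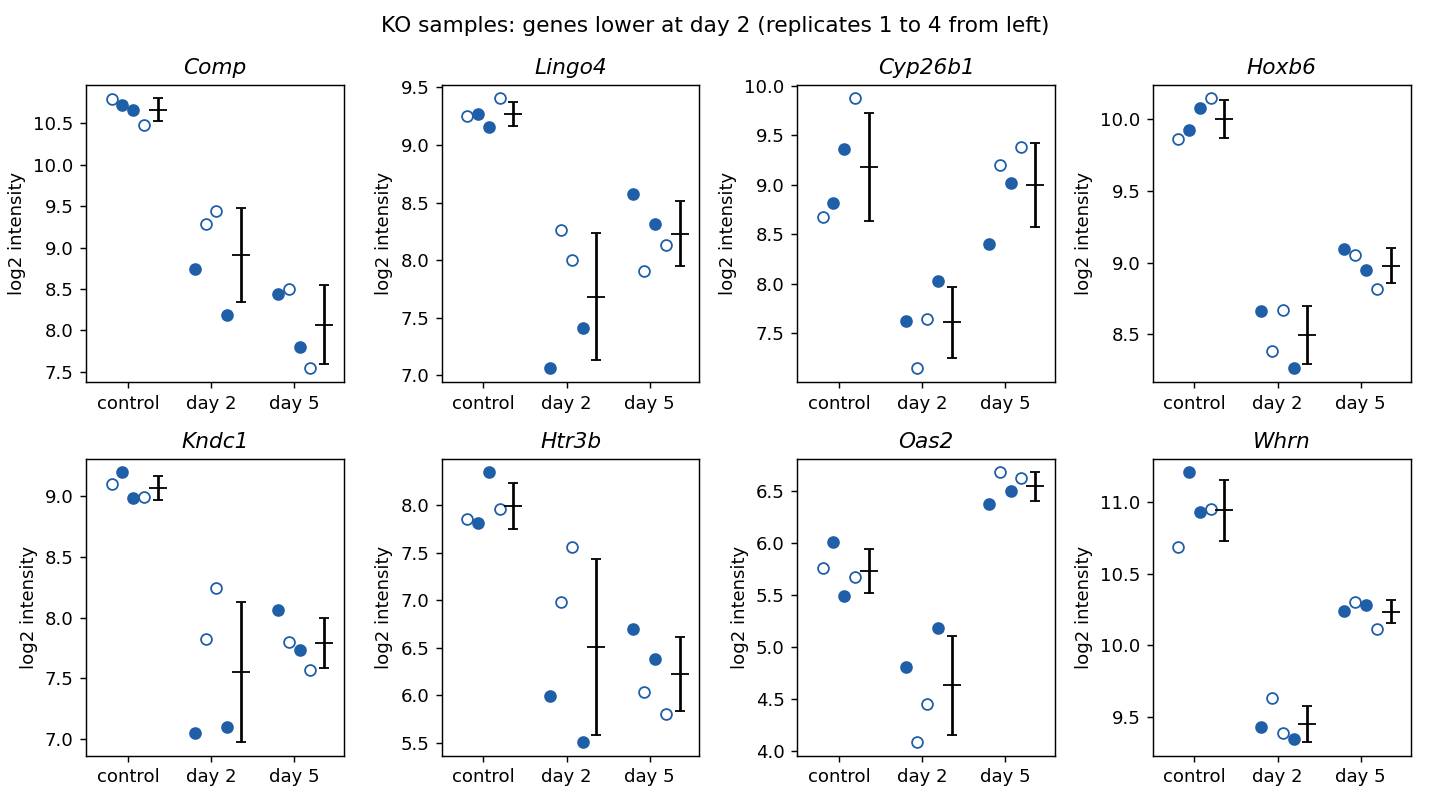
Log2 intensity of 8 genes that fell at day 2, in each KO control, day 2 and day 5 sample (replicates 1 to 4 from left, filled symbols with an array partner of the same time point, open symbols with another, bars mean ± SD, n = 4). Each day 2 sample lay below each control, with the lowest values of *Kndc1*, *Lingo4* and *Htr3b* in replicates 1 and 4, and *Oas2* was higher at day 5 than in any control.

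Some cytokines and growth factors of the injury response rose, and most members of these lists did not pass. *Il6*, an early neuronal cytokine, rose by 2.93 ± 0.21, from between 4.11 and 4.86 to between 6.98 and 7.68, and was well above background in 2 of 4 controls. Of 22 genes of gp130 cytokines, STATs and SOCS proteins 7 rose and 0 fell, including the feedback inhibitors *Socs3* (1.60 ± 0.18), *Cish* (1.14), *Socs2* (1.13) and *Socs1* (0.91), with 4 in same-time samples. *Socs3* went from 9.22, 8.77, 8.59 and 9.10 to 10.78, 10.45, 10.04 and 10.79, with no overlap. Of 31 growth factors 8 rose and 5 fell. *Csf1*, the macrophage growth factor, rose by 2.28 ± 0.17 from 8.58, 8.56, 8.48 and 8.84 to 11.16, 10.91, 10.34 and 11.18, *Inhbb* by 1.33 and *Bdnf* by 1.16 ± 0.13. *Areg* (1.08), *Il1b* (1.02), *Tgfb1* (0.80), *Inhba* (0.65) and *Gdf15* (0.62) rose less, while *Ntf3* (neurotrophin 3, at least 1.90-fold lower, with no day 2 sample well above background), *Vegfa* (-0.83), *Nrg1* (neuregulin 1, -0.68), *Inha* (-0.60) and *Fgf18* (-0.59) were lower.

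Chemokines were higher in 8 of 25 cases and lower in 1 (median change 0.36), but with the spread of the compared groups alone 2 rose. The monocyte attractants *Ccl8* (2.02 ± 0.33), *Ccl7* (1.92 ± 0.28), *Ccl2* (1.23 ± 0.21) and *Ccl12* (1.02 ± 0.24) were among them, together with *Cxcl13* (at least 2.71-fold, from no control well above background), *Ccl9* (1.40), *Cxcl14* (1.27) and *Cxcl1* (1.21). *Ccl7* had log2 intensities of 7.02, 6.49, 6.05 and 7.23 in controls and 9.03, 8.02, 8.40 and 9.04 at day 2. The neuronal chemokine *Cx3cl1* fell by 0.54. Macrophage markers were higher in 6 of 23 cases and lower in 0 (median change 0.51), namely *Mrc1* (1.05), *Cd68* (0.85), *Trem2* (0.82), *Fcer1g* (0.81), *Fcgr3* (0.78) and *Itgam* (0.69), with 0 when the spread of the compared groups alone was used. The summed intensity of the 23 macrophage markers did not separate the groups (27530 to 33190 in controls, 22320 to 41550 at day 2). Complement genes rose in 4 of 17 cases and fell in 0, led by *C3* (1.46 ± 0.34), with *C1qb* (0.69), *Masp1* (0.67) and *Cfi* (0.49), and rose in 8 cases without KO day 2 replicate 3. None of 7 MHC class II presentation genes passed (median change -0.57), and of 31 interferon response genes *Mx2* rose (0.83 ± 0.15) and *Oas2* fell (-1.10 ± 0.24), shares below the background.

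Stress and growth arrest genes that passed were mainly higher, though most members of these lists did not pass. Of 24 genes of the integrated stress response, which follows ATF4, 10 rose and 0 fell, led by *Chac1* (glutathione degradation, 1.59 ± 0.23), the arginine transporter *Slc7a3* (0.97 ± 0.09) and the pseudokinase *Trib3* (0.96 ± 0.20), and 2 of the 24 rose in same-time samples. *Chac1* was 8.85, 9.14, 9.06 and 9.51 in controls and 11.03, 10.93, 9.96 and 11.01 at day 2, where replicate 3 lay apart from the other 3. Of 19 p53, growth arrest and Bcl2 family genes 4 rose and 1 fell: *Gadd45g* by 2.19 ± 0.14, the CDK inhibitor *Cdkn1a* (p21) by 2.00 ± 0.18, *Pmaip1* (Noxa) by 1.78 ± 0.15 and *Bak1* by 0.41, with the anti-apoptotic *Bcl2* down by 0.80. Of 13 metallothionein and oxidative stress genes 5 rose, among them *Mt2* (1.66 ± 0.23), sulfiredoxin *Srxn1* (1.56 ± 0.14) and *Mt1* (1.01 ± 0.17), and *Gclc* fell by 0.47.

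Cell cycle genes were higher in 13 of 42 cases and lower in 0 (median change 0.53). The spindle protein *Prc1* rose by 2.38 ± 0.15, from 7.33, 7.22, 7.14 and 7.36 to 9.87, 9.71, 9.06 and 9.95, and the replication helicase subunits *Mcm3* by 1.10, *Mcm6* by 0.97, *Mcm5* by 0.87 and *Mcm7* by 0.54. *Ube2c* (1.03), *Ccna2* (0.94), *Tyms* (0.94), *Foxm1* (0.77), *Tpx2* (0.73), *Birc5* (0.69) and *Cdca8* (0.48) completed the list with *Ttk*, which was well above background in none of the 8 samples. In same-time samples 7 rose. Of 34 extracellular matrix genes 4 rose and 1 fell. Among them the protease inhibitor *Timp1* (3.10 ± 0.20), the membrane metalloprotease *Mmp16* (2.80 ± 0.15) and *Adamts1* (1.07 ± 0.16) rose, and *Timp2* fell by 0.55. *Gch1*, the first enzyme of tetrahydrobiopterin synthesis and 1 of 7 genes of that pathway, rose by 1.39 ± 0.19 from 5.83, 5.27, 5.91 and 5.43 to 7.26, 6.62, 7.02 and 7.10.

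Metabolic and clock genes moved less. Of 25 cholesterol synthesis genes 6 fell and 2 rose, among them *Lss* (-0.60) and *Dhcr7* (-0.57) downward and *Hsd17b7* (0.88 ± 0.13) upward, and 4 fell without the library labelled KO control replicate 4. Of 38 subunits of the mitochondrial respiratory chain 3 fell (*Ndufa10*, -0.33, *Ndufb5*, -0.30, *Ndufs3*, -0.27), a share near the background, and 0 fell without that library. A list of 20 genes held clock genes and PAR bZIP factors, of which only the latter are antagonists of NFIL3. Of its clock genes 3 rose (*Bhlhe41*, 1.24 ± 0.16, *Per1*, 0.90 ± 0.18, *Csnk1e*, 0.45 ± 0.12) and *Arntl* (BMAL1) fell by 0.80. No PAR bZIP gene of the list passed. *Arntl* had log2 intensities of 6.91, 6.59, 6.80 and 6.46 in controls and 6.13, 5.89, 5.86 and 5.66 at day 2, without overlap. In same-time samples *Arntl* (limma adjusted p = 0.188), *Per1* (0.0764) and *Csnk1e* (0.227) did not pass. With the spread of the compared groups alone *Arntl* and *Bhlhe41* passed, and *Per1* and *Csnk1e* did not.

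Glial and structural genes were mixed. Of 14 satellite glia markers 3 rose and 2 fell. *Gfap*, the filament of reactive glia, rose by 1.75 ± 0.33 and was well above background in 1 of 4 controls and all day 2 samples, *Glul* (glutamine synthetase) rose by 0.71 ± 0.10 and *Cdh19* by 0.58 ± 0.14, while *Fabp7* went from 15.07, 14.57, 15.06 and 14.83 to 14.14, 13.66, 14.33 and 14.13 (-0.82 ± 0.15) and the gap junction gene *Gja1* fell by 0.45. In same-time samples 1 of these markers rose and 0 fell. Of 9 intermediate filament genes, *Gfap* and *Lmna* (0.43) rose and the neurofilaments *Nefh* (-0.88 ± 0.14) and *Nefm* (-0.83 ± 0.14) were lower.

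With the spread of the compared groups alone the counts of most lists were smaller. Then 12 of the axon growth genes, 12 of the injury transcription factors, 5 of the injury-induced neuropeptides and 8 of the cell cycle genes rose, as did 3 each of the integrated stress response genes and growth factors, 5 of the gp130 genes and 1 of the complement genes. In the same setting 2 of the sensory receptors, 1 each of the sodium channels and of the TRP and related channels, 3 of the identity transcription factors and 0 of the cholesterol synthesis genes fell.

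The tissue is labelled as DRG neurons, and whole ganglia were dissected. All 13 measured DRG neuron markers were well above background in all 8 samples. Of these 5 fell, among them *Nefh*, *Snap25* (-0.68), *Avil* (advillin, -0.47) and *Isl1*, and 0 rose, and their summed normalized intensity was 561300 to 676800 in controls and 445800 to 518900 at day 2, without overlap. In same-time samples 2 of these markers fell, where *Nefh* (adjusted p = 0.0539), *Snap25* (0.0612) and *Avil* (0.0849) did not pass, and 1 fell with the spread of the compared groups alone. All 14 Schwann cell myelin markers and all 9 fibroblast and meningeal markers were also well above background throughout, with no member past the threshold. Their sums overlapped between the groups, at 64970 to 104300 and 71590 to 130700 for Schwann cells and at 51000 to 128600 and 25970 to 83310 for fibroblasts. No endothelial, pericyte, lymphocyte or neutrophil marker passed, though the neutrophil sum was highest in KO day 2 replicate 3 (84530, against 9545 to 39750 in the other 7 samples).

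Markers of muscle and fat varied between samples. Of 11 skeletal muscle markers 0 passed, but their sum was 439.9 to 603.4 in controls and 3511, 657.2, 528.8 and 9431 at day 2, so replicates 1 and 4 stood apart. The array partners of these 2 replicates, WT day 2 replicates 3 and 2, had sums of 649.8 and 698. The sum of 8 adipocyte markers was 357.1 to 925.6 in controls and 1035 to 1688 at day 2, without overlap, and 3211 to 5317 at day 5. *Car3*, a carbonic anhydrase of fat and muscle that is part of this sum, rose by 2.58 ± 0.24 as the only member past the threshold. *Fabp4* (0.66), *Cfd* (0.34) and *Plin1* (-0.38) did not pass. Of 6 erythroid markers 1 passed, *Epb4.2*, which did not exceed background clearly in any of the 8 samples and did not pass without KO control replicate 4. Of 10 spinal cord markers *Aqp4* fell by 0.75, and 4 were well above background in none of the 8 samples. The source of these markers and their part in the other results were not tested.

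The response of KO DRGs was set beside that of WT DRGs, which have no samples in common with it but share arrays. In WT DRGs 3073 genes passed by their brightest probe (11.2%). The genes past in both genotypes numbered 2200, 67.2% of those of KO and 71.6% of those of WT, and all 2200 moved in the same direction. Over the 14555 genes well above background in all 24 samples the changes in KO and WT correlated across genes with r = 0.906, a description in which genes are not independent. Of 2712 of these genes that passed in KO, 2700 had the same sign in WT and 1 differed by more than 1 on the log2 scale. The median difference KO minus WT was 0.03 for genes that rose in KO and -0.05 for genes that fell. Side by side, *Atf3* rose by 5.10 in KO and 5.14 in WT, *Sprr1a* by 5.69 and 5.44, *Sox11* by 3.43 and 3.55, *Gal* by 3.74 and 3.72, and *Kcns1* fell by 1.31 and 1.13. In WT, 19 of the 30 axon growth genes, 15 of the 30 injury transcription factors and 17 of the 42 cell cycle genes rose, and 19 of the 42 potassium and HCN channels, 10 of the 37 receptors and 12 of the 29 synaptic genes fell.

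**Figure D4:**
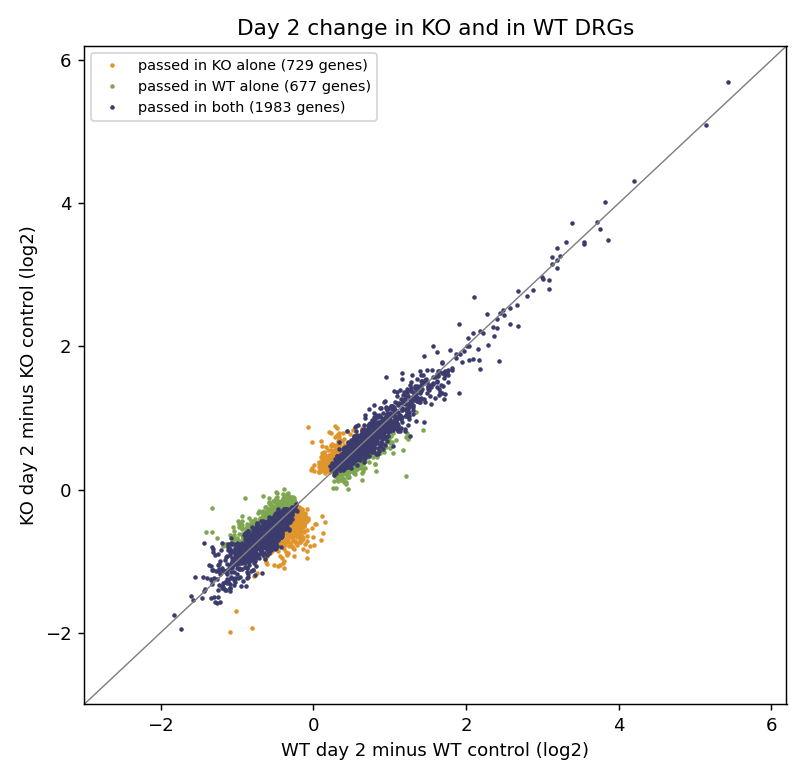
Change at day 2 in WT (x axis) and in KO DRGs (y axis), in log2 intensity, of genes well above background in all 24 samples that passed in either genotype, with the line of equal change. Points lie along the line, with 1983 genes past in both, 729 in KO alone and 677 in WT alone, which does not show a difference between genotypes.

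The difference in response itself was tested as the interaction of genotype and lesion. No gene passed (0 of 27398, limma, smallest adjusted p = 0.319), and 812 genes (2.96%) had an unadjusted p under 0.05 by their brightest probe. In same-time samples 2 genes passed, and with 1 sample left out in turn 0 or 1. The median 95% interval of KO minus WT, not corrected for the number of probes, reached 0.397 to each side on the log2 scale. For a typical gene a difference smaller than this could not be told from 0. Larger differences could also fail the corrected test, as those of the genes below did. *Nfil3* itself did not pass it. In WT its day 2 samples (10.34 to 10.76) lay above its controls (8.44 to 9.03), while in KO its day 2 samples and controls overlapped. Among genes well above background in all samples of at least 1 of the 4 groups, the smallest unadjusted p was that of *Col25a1*, a neuronal collagen. It was 5.40, 5.64, 5.70 and 5.76 in KO controls and 5.18, 5.09, 4.94 and 4.88 at day 2, with WT means of 5.24 in controls and 5.37 at day 2 (KO minus WT -0.73, 95% interval -1.06 to -0.40, not past the correction). *Clec18a* (-0.78), *AK046232* (-1.01), *AK084906* (not well above background at day 2 in KO) and, upward, *Auh* (0.46), an enoyl-CoA hydratase, followed and did not pass either.

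Genes defined in WT were then followed in each KO sample. For 1138 genes higher and 1522 lower at day 2 in WT, the median distance from the KO control mean was 0.77, 0.56, 0.45 and 0.71 for the higher and -0.67, -0.40, -0.27 and -0.70 for the lower genes in KO day 2 replicates 1 to 4. Each day 2 sample was shifted in the direction of WT, replicate 3 the least, and the 4 controls stayed between -0.04 and 0.04. Replicates 1 and 4, which shared arrays with WT day 2 samples, were shifted the most. The part of the array partner in these shifts was not tested. The library labelled KO control replicate 4 lay at 0.04 and 0.00, near the other controls. The mean includes each control itself, which draws the controls toward 0. For single genes such as *Sprr1a* and *Npy* that library stood apart (above). Among the 1290 genes that rose in KO and were well above background in all 8 samples, it was the highest control for 478 (37.1%), and KO day 2 replicate 3 was the lowest day 2 sample for 771 (59.8%). Among the 1506 that fell, replicate 3 was the highest day 2 sample for 923 (61.3%).

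**Figure D5:**
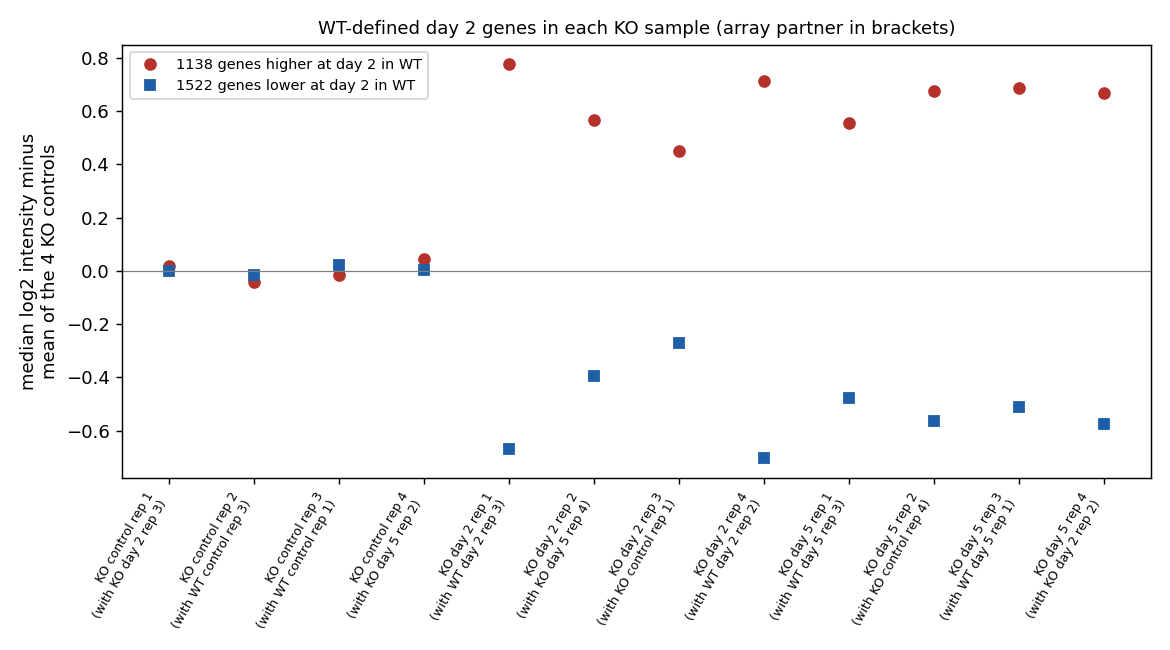
Median log2 intensity, relative to the mean of the 4 KO controls, of 1138 genes higher (red circles) and 1522 genes lower (blue squares) at day 2 in WT, for each KO control, day 2 and day 5 sample, with its array partner in brackets. Controls, which are part of that mean, lie near 0, and KO day 2 samples at 0.45 to 0.77 and -0.27 to -0.70. Of the day 2 samples, replicate 3, which shared an array with a control, lies closest to the controls. Replicates 1 and 4, which shared arrays with WT day 2 samples, lie farthest from them.

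The later course was examined by comparing KO day 5 with KO day 2, a contrast that uses the same day 2 samples as the one above. By any probe 306 genes differed, 234 higher and 72 lower at day 5 (0.975% of genes by their brightest probe). The count depended on the samples used, with 4 genes in same-time samples and 0 with the spread of the compared groups alone. The acute phase genes *Saa2* and *Saa1* rose and then fell. *Saa2* rose by 3.64 at day 2 and was lower again by 2.20 at day 5, at 7.81, 7.64, 7.73 and 7.60, and *Saa1* rose by 2.54 and then fell by 1.78. *E030010A14Rik* rose by 1.54 and then fell by 1.52, to a day 5 mean of 4.81 against 4.79 in controls. *Timp1* fell by 1.29 from day 2 to day 5, *Mt2* by 1.06, *Il6* by 0.96, *Bdnf* by 0.86 and *Adcyap1* by 0.58, each after a rise at day 2.

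Other genes rose further. *Anxa10* went from 7.70, 7.26, 6.79 and 7.82 at day 2 to 9.65, 9.49, 9.68 and 9.87 at day 5 (2.28 ± 0.23, adjusted p = 4.12e-05), *Car1*, a carbonic anhydrase, rose by a further 1.82, *Ccl8* by 1.86, *Car3* by 1.66, *Trem2* by 1.62, *Nts* by 1.44, *2010005H15Rik* by 1.42, *Chl1* by 0.95 and *Csta* by 0.93. The day 5 samples of *Sprr1a* (15.25 to 15.80) and *Npy* (13.03 to 13.28) lay above the day 2 samples, but the differences of 2.09 and 2.06 did not pass. Of the macrophage markers 10 of 23 were higher at day 5 than at day 2. Among lowered genes *Oas2*, an antiviral enzyme, *Cyp26b1*, *Arntl*, *Shox2* and *Whrn* were higher again at day 5, by 1.91, 1.39, 1.09, 0.94 and 0.79. *Arntl* reached 6.82 to 7.18, *Cyp26b1* 8.40 to 9.38 and *Oas2* 6.37 to 6.68, the last above each control. *Atf3*, *Sox11*, *Jun*, *Flrt3* and *Gadd45a* differed by -0.30 to 0.29 between day 5 and day 2 and did not pass.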

How the data were processed

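RNA of 24 DRG samples in 6 groups of 4 (2 labelled with Cy3 and 2 with Cy5 per group) was measured on 12 whole mouse genome arrays (Agilent 4x44K, 3 slides). The deposited files hold spot intensities as given by Agilent Feature Extraction for both channels, without further normalization, and the authors used each channel as a single-colour sample. From mean foreground and median background intensities, values were background corrected (Edwards), quantile normalized over 24 channels and set to log2 with limma 3.58.1 in R 4.3.3. Control spots and outlier spots were left out (417 probe values missing), and spots of a probe were averaged. Probe names, gene names and mm9 coordinates are those of the array design and can be old. The number of arrays limits the precision.

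Group means of all 24 samples were estimated in 1 linear model, and p-values of limma's moderated test were adjusted over 41174 probes by the method of Benjamini and Hochberg (threshold 0.05). A gene was represented by its brightest probe. Named genes were *Nfil3*, the 12 largest rises and 12 largest falls among genes past the threshold, without overlap of the groups and well above background in all 8 samples, the largest bounds, the leading members of each gene list, the smallest interaction p-values and the largest differences between day 5 and day 2. Other members that passed are mostly given with their change, and some genes are counted in their lists but not reported here by name. Members and lists were chosen with earlier results of these data known. Groups follow the sample titles. The code was tested on simulated data. Alternatives covered background correction, normalization, filters, batch terms, array partners and leaving out each replicate.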

Additional observations from a re-analysis of the deposited data

Results flagged for a closer look

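In 25 of 376 groups of 4 samples tested, 1 sample lay far from the other 3, and chance flags about 1 in 20 such groups. KO day 2 replicate 3 was the lowest day 2 sample for *Wfdc3* (9.65, others 10.38 to 10.40), *Star* (8.593), *Grp* (6.735), *Chac1* (9.964) and *Srxn1* (14.51). The library labelled KO control replicate 4 was the highest control for *Gal* (12.34, others 11.10 to 11.24), *Colec10* (4.307), *H2-Eb1* (9.59) and *Bhlhe41* (6.185), and the lowest for *Avil* (12).

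KO control replicate 1 stood below the other controls for *Aldh1a2* (6.146, others 8.81 to 9.23), *Mt1* (12.1), *Ndufs3* (13.21) and *Pdgfrb* (8.844), and above them for *Adra2c* (8.62) and *Sv2b* (11.44). KO control replicate 2 was low for *Socs1* (6.147) and *Chgb* (12.92) and high for *Trib3* (8.168), and KO control replicate 3 was low for *Timp1* (8.034) and high for *Trpm8* (6.911). At day 2, replicate 1 was low for *Snap25* (13.39) and high for *Ccl8* (10.26) and *Car1* (6.955), and replicate 4 was low for *Ndufb5* (10.6). All values are log2 intensities.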

How the results depend on the processing

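Of the alternative values of single named genes, 4253 kept direction and side of the threshold, 20 changed sign without passing in either setting, 187 lost the call, 51 gained it and 1 reversed, the difference of *Nfil3* (1.679 in same-time samples, against controls that were not well above background). In same-time samples 1867 genes changed at day 2 in KO and 1336 in WT, 2 passed the interaction and 4 differed between day 5 and day 2. With only the groups compared, the counts were 834 in KO (67.3% of called probes higher, against 46.4% in the fit over 24 samples), 1571 in WT and 0 between day 5 and day 2. The count between day 5 and day 2 was 537 without background correction, 515 with normexp and 500 with the array as a random block. The cause of these shifts was not tested, beyond the smaller number of samples in the first 2 settings. Leaving out each replicate gave 2486 (without KO day 2 replicate 1) to 5054 (without KO day 2 replicate 3) genes for KO day 2, 3126 without the library labelled KO control replicate 4, 0 to 1 for the interaction, 164 (without KO day 5 replicate 2) to 367 for day 5 against day 2, 166 without KO day 5 replicate 3, 188 without KO day 2 replicate 2 and 192 without KO day 5 replicate 4, and 2454 to 3383 for WT. With the replicate number as a block 4023 genes passed in KO, 3733 in WT, 0 for the interaction and 321 between day 5 and day 2. Same-numbered KO samples correlated in their deviations with r of -0.273, -0.234, 0.261 and -0.0959. The highest r were 0.54 for KO control replicate 2 with KO day 2 replicate 4, on the same slide, and 0.451 for KO control replicate 1 with KO day 2 replicate 3, on the same array. Since samples of a shared slide or array can correlate, these values cannot decide whether samples came from the same animals. Agilent's processed signals moved the median change of all probes to 0.10, against -0.02.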
